A study of Mus musculus with 9 samples.

Results

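Protein-coding genes whose introns carry microRNAs, 10 in all, were followed in mouse bone marrow cells that had lost Drosha or Dicer. They are Mcm7, Smc4, Evl, Ctdsp1, Ctdsp2, Ctdspl, Egfl7, Huwe1, Srebf2 and Pank3. The members were a fixed list of gene names, found among the array probes by name, and 1 probe stood for each gene, the one with the highest mean over the 9 arrays. All 10 were on the array and passed the filter on dim probes, out of 23023 genes and noncoding regions tested. The question was whether the spliced mRNA of such a host gene changes when Drosha is lost.

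The cells were LSK cells, the lineage marker-negative, Sca1+ and cKit+ fraction of bone marrow in which blood stem cells and early progenitors are enriched, from female mice. Control cells were of the strain Gt(ROSA)26Sor CreERT2, Drosha-deleted cells were Drosha fl/fl Gt(ROSA)26Sor CreERT2 and Dicer-deleted cells were Dicer fl/fl Gt(ROSA)26Sor CreERT2, so all groups carried the tamoxifen-activated Cre. All groups were kept for 72 h with 250 nM 4OH-tamoxifen, 10 ng/mL IL-3, 10 ng/mL IL-6, 50 ng/mL stem cell factor and 10% FCS, and the values describe cultured rather than freshly sorted cells. Each group had 3 arrays, and the age of the mice and whether repeats came from separate animals are not given, so p-values measure only the spread between these samples. The samples are bulk RNA, in which fewer cells of a type and less RNA per cell cannot be told apart.

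Drosha, with its partner Dgcr8, cuts the hairpin of a microRNA out of a long nuclear transcript, and Dicer trims the freed hairpin in the cytoplasm. An intronic microRNA shares its primary transcript with a protein-coding gene, so the same RNA molecule is a substrate of both Drosha and the splicing machinery. Loss of Dicer stops maturation after that nuclear cut, so cells without Dicer serve as the comparison in which microRNAs are impaired but Drosha is present.

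The 14 microRNA hairpins for which the 10 hosts are known lie within them on the same strand in the RefSeq annotation of GRCm38.p6, with the strand of Smc4 taken from the order of its probes. Ctdsp2 also encloses Mir546, which is not considered further. Their position in an intron is known for these genes and was not checked here against exon coordinates. The main mature products, taken from RefSeq, are shown because they are what each host transcript yields, with the seed, bases 2 to 8, in capitals. Mcm7 holds a cluster of 3 hairpins, of which 2 share a seed.
miR-106b-5p: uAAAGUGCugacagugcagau
miR-93-5p: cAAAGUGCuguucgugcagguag
miR-25-3p: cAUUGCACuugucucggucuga
The pair in Smc4 also shares one seed.
miR-15b-5p: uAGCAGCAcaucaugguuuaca
miR-16-5p: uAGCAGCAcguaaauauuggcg
The phosphatase genes Ctdsp1, Ctdsp2 and Ctdspl carry the miR-26 family, Ctdsp1 the first of the following and the other two the second.
miR-26b-5p: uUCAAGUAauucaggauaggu
miR-26a-5p: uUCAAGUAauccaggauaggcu
Huwe1 holds a pair of let-7 family members.
let-7f-5p: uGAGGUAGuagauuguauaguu
miR-98-5p: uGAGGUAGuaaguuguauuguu
Evl, Egfl7, Srebf2 and Pank3 hold microRNAs whose seeds are shared with no other sequence printed here.
miR-342-3p (Evl): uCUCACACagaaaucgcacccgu
miR-126a-3p (Egfl7): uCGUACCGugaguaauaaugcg
miR-33-5p (Srebf2): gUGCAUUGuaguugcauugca
miR-103-3p (Pank3): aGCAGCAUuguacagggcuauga
The hairpins of Smc4 lie in RefSeq GRCm38.p6 at chr3:69009772-69009835 and chr3:69009902-69009996, on the forward strand. They are shown as the substrates that Drosha would cut from the transcript of the host with the lowest adjusted p of the 10 for Drosha-deleted cells against controls, with the mature 5p arm in capitals.
Mir15b: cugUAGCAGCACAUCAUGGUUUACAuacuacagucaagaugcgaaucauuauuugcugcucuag
Mir16-2: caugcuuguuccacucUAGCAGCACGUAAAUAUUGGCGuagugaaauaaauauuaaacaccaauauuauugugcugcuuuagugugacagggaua

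Levels below are the authors' values on a log2 scale, on which a difference of 1 is a doubling, and differences are first group minus second group. As a check of the labels, Drosha stood at 11.92 ± 0.10 (SD, n = 3) in controls, 9.01 ± 0.27 without Drosha and 12.03 ± 0.11 without Dicer. Dicer1 stood at 10.29 ± 0.32 in controls, 10.44 ± 0.41 without Drosha and 9.05 ± 0.12 without Dicer. Of the LSK markers (Kit, Ly6a, Flt3, Cd34, Cd48, Slamf1), 6 of 6 were well above background on all 9 arrays, as were 4 of 4 megakaryocyte (Pf4, Itga2b, Gp9, Gp1bb) and 4 of 4 monocyte markers (Csf1r, Cd14, Itgam, Adgre1), while 0 of 2 B cell markers were. The T cell marker Cd3e was also well above background on all 9 arrays, at 9.62 to 11.20.

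Among the markers of megakaryocytes and monocytes, 1 gene passed the threshold (an adjusted p of 0.05 by limma), in 1 comparison. Of the 6 LSK markers 0 passed, and they went both ways. From controls they ran from -0.59 (Slamf1) to 0.73 (Flt3) without Drosha and from -0.81 (Slamf1) to 0.25 (Kit) without Dicer. Between the deletions Flt3 was the highest of them, at 0.91. Cd3e, a T cell marker, differed from controls by 0.81 and 0.49 and did not pass. The summed level of the megakaryocyte markers was 18.47 to 18.57 in controls, 18.22 to 18.43 without Drosha and 17.99 to 18.23 without Dicer. Summed levels add values off the log2 scale, so the highest gene weighs most. Pf4 stood at 17.86 to 18.43 and Itga2b, the next, at 12.80 to 14.29. The median difference of the megakaryocyte markers was -0.15 and -0.56 from controls and 0.38 between the deletions, and 0 of 4 passed in any comparison. For Dicer-deleted cells against controls, 3 of 4 did not overlap and were lower, against 9.95% of all genes, and Itga2b was above controls by 0.10. The summed level of the monocyte markers was 14.94 to 15.59, 15.25 to 15.78 and 15.40 to 15.69 in the same order, with medians of -0.45, -0.30 and -0.13. The members went both ways, and Itgam was the 1 of 4 above controls, by 0.72 without Drosha and 0.70 without Dicer. Cd14, a co-receptor for bacterial lipopolysaccharide, was the 1 of 4 that passed. With scanner values its Drosha-deleted minus control difference was -0.33 (adjusted p of 0.799 by limma). Without control replicate 2 in those scanner values it was -1.26 (adjusted p of 0.152 by limma). With the authors' values Cd14 fell by 1.26 in Drosha-deleted cells against controls (adjusted p of 0.0300 by limma). It no longer passed without control replicate 2 or 3, Drosha-deleted replicate 1 or 2, or Dicer-deleted replicate 1 or 2, over which fits and the 3 others the adjusted p ranged from 0.00137 to 0.147. The part of these markers in the differences of the hosts and their partner genes was not tested.

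The control arrays were not alike. The authors' columns for control replicates 2 and 3 correlated with each other at r = 0.991 across probes, and with the 6 deletion columns at 0.978 to 0.986, whereas control replicate 1 correlated with those 6 at 0.989 to 0.993. The column of control replicate 2 matched the scanner file of control replicate 3 (r = 0.974) better than its own (r = 0.770), and 19.1% of the spots in its own file were marked as outliers, against 0.177% to 0.265% elsewhere. Control replicate 3 was alone on its slide. Each host's difference from the controls is therefore also given with control replicate 1 as the only control, a fit that assumes this lone array to vary like the other groups, while partner genes are given with all 3 controls. Within the slide that held the other 8 arrays, all 30 host differences kept their sign, and the Smc4 difference from controls without Drosha was 0.44. The comparison of the deletions with each other does not use the controls' levels. Its intervals and p-values do depend on the spread among the controls, because all groups share a common estimate of spread.

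None of the 10 host mRNAs passed the threshold, an adjusted p of 0.05 by limma over all 23023 genes, in any of the 3 comparisons. The background was low: 0.169% of all genes passed when Drosha-deleted cells were set against controls, 0.0174% when Dicer-deleted cells were, and 0.0565% when the 2 deletions were compared with each other. Before adjustment, p was under 0.05 for 2 hosts (Smc4 and Ctdsp2), 1 host (Ctdsp2) and 1 host (Smc4) in these comparisons, against 26.9%, 21.9% and 5.66% of all genes. Host differences lay on both sides of 0, with 4, 4 and 5 of 10 above it and medians of -0.11, -0.11 and 0.01, and the medians over all genes were 0.00 in each. With scanner values in place of the authors' columns, the median of all genes itself shifted to 0.36 and 0.37 against controls, and the host medians to 0.43 and 0.48. Leaving control replicate 2 out of those scanner values gave host medians of -0.15 and -0.12, below 0 in both. Between the deletions, all 10 host differences were smaller than 0.5 in size, as were 95.5% of all genes. The comparisons share samples, since both deletions were set against the same controls.

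**Figure D1:**
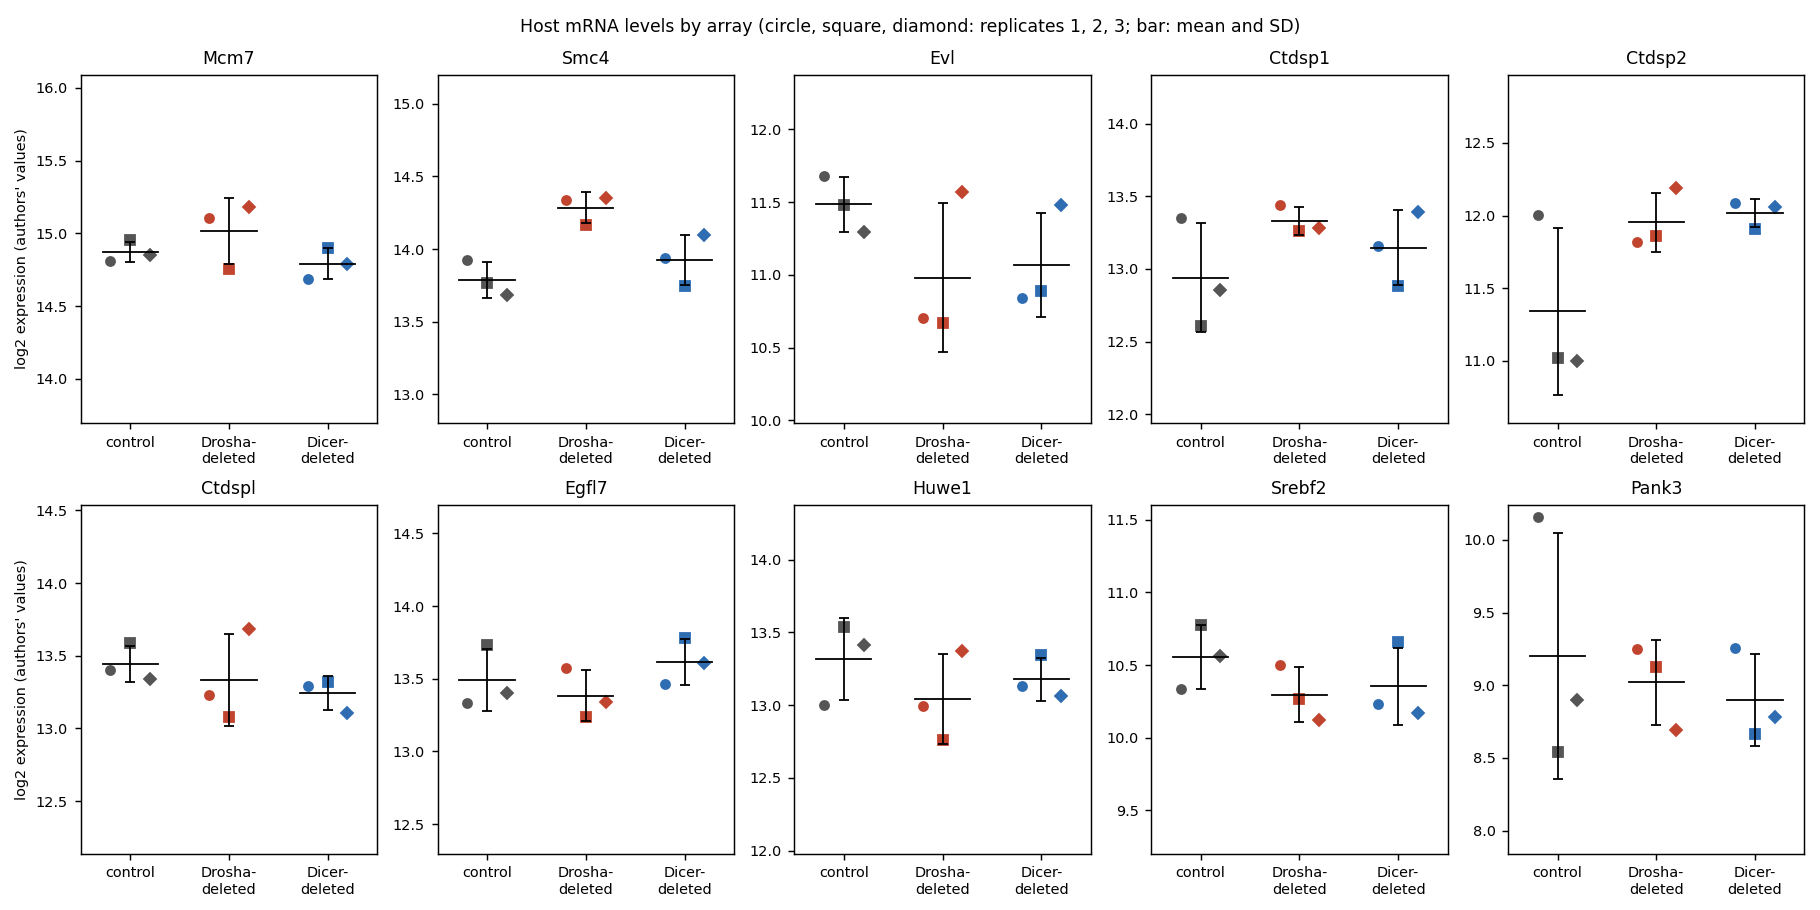
Level of each host mRNA on every array, on the authors' log2 scale, with control arrays in grey, Drosha-deleted in red and Dicer-deleted in blue; lines are group means and error bars SDs of 3 arrays, and each panel spans 2.4 log2 units. Smc4 is the panel in which the 3 Drosha-deleted arrays lie above all 6 others, and in Ctdsp2 and Pank3 control replicate 1 lies apart from the other controls.

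Among hosts with roles in cell division, Smc4 read higher on every Drosha-deleted array than on any other array, without passing the threshold. Smc4 encodes a core ATPase subunit of condensin, the complex that compacts chromosomes for mitosis, and its probe lies at chr3:68838437-68838496 (mm9). Its levels were 13.92, 13.76 and 13.68 in controls, 14.34, 14.16 and 14.35 without Drosha and 13.94, 13.75 and 14.09 without Dicer. The lowest Drosha-deleted array, 14.16, lay above the highest of the 6 others, 14.09, and the control and Dicer-deleted arrays overlapped. Groups did not overlap with the first group higher for 12.7% of all genes against controls and for 8.62% against Dicer-deleted cells.

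The Smc4 difference was 0.49 (SE 0.13, 95% interval 0.20 to 0.79) for Drosha-deleted minus control, a ratio of 1.41, with an adjusted p of 0.103 by limma. Against Dicer-deleted cells it was 0.36 (0.06 to 0.66), a ratio of 1.28, with an adjusted p of 0.755. Neither passed the threshold, and the second holds the 1 interval among the hosts that left out 0 in the comparison of the deletions. For Dicer-deleted minus control the difference was 0.14 (-0.16 to 0.44). Against control replicate 1 alone, the difference was 0.36 for Drosha-deleted cells and 0.0023 for Dicer-deleted cells. Without control replicate 1 it was 0.56, with an adjusted p of 0.0135, and the adjusted p ranged from 0.0135 to 0.976 over 19 alternatives, in which the difference was above 0 in all 19. In that fit without control replicate 1, however, 33.6% of all genes passed.

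The 4 other condensin genes measured, Smc2, Ncaph, Ncapg and Ncapd2, had a median difference of 0.03 for Drosha-deleted minus control and 0.02 for Drosha-deleted minus Dicer-deleted, and 0 of 4 passed. Smc2, the partner with which Smc4 forms the core of condensin, differed by 0.11 from controls and by 0.18 from Dicer-deleted cells. Of 4 markers of dividing cells, 0 passed in any comparison. The summed level of Mki67, Top2a, Ccnb1 and Cdk1 was 15.70 to 15.98 in controls, 16.01 to 16.07 without Drosha and 16.01 to 16.05 without Dicer, and all 4 were well above background on all 9 arrays. The highest control, replicate 1 at 15.98, lay close to the deletion arrays, and the other controls stood at 15.75 and 15.70. The median difference from controls was 0.28 without Drosha and 0.32 without Dicer, from 0.09 and 0.08 for Ccnb1 to 0.69 and 0.58 for Cdk1. Their part in the Smc4 difference from controls was not tested. Between the deletions the median difference of these 4 markers was 0.00.

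Mcm7 encodes a subunit of the helicase that opens DNA at replication origins, and its probe lies at chr5:138605925-138605984 (mm9). The controls read 14.81, 14.95 and 14.85, the Drosha-deleted arrays 15.10, 14.76 and 15.18, and the Dicer-deleted arrays 14.68, 14.90 and 14.79. Drosha-deleted replicates 1 and 3 were the highest of the 9, but replicate 2 lay below every control. The difference was 0.14 (-0.17 to 0.46) from controls and 0.22 (-0.09 to 0.54) from Dicer-deleted cells, with adjusted p of 0.519 and 0.999. The Dicer-deleted minus control difference was -0.08 (-0.39 to 0.23). Against control replicate 1 alone the deletions gave 0.20 and -0.02.

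The other 5 helicase subunits, Mcm2 to Mcm6, carry none of the listed microRNAs. Their median difference was 0.20 for Drosha-deleted minus control, 0.18 for Dicer-deleted minus control and 0.02 between the deletions, and 0 of 5 passed in any comparison. Mcm2, the first of them, differed from controls by 0.52 without Drosha and 0.60 without Dicer (adjusted p of 0.129 and 0.165), and by -0.09 between the deletions. The part of the dividing-cell markers given above was not tested.

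**Figure D2:**
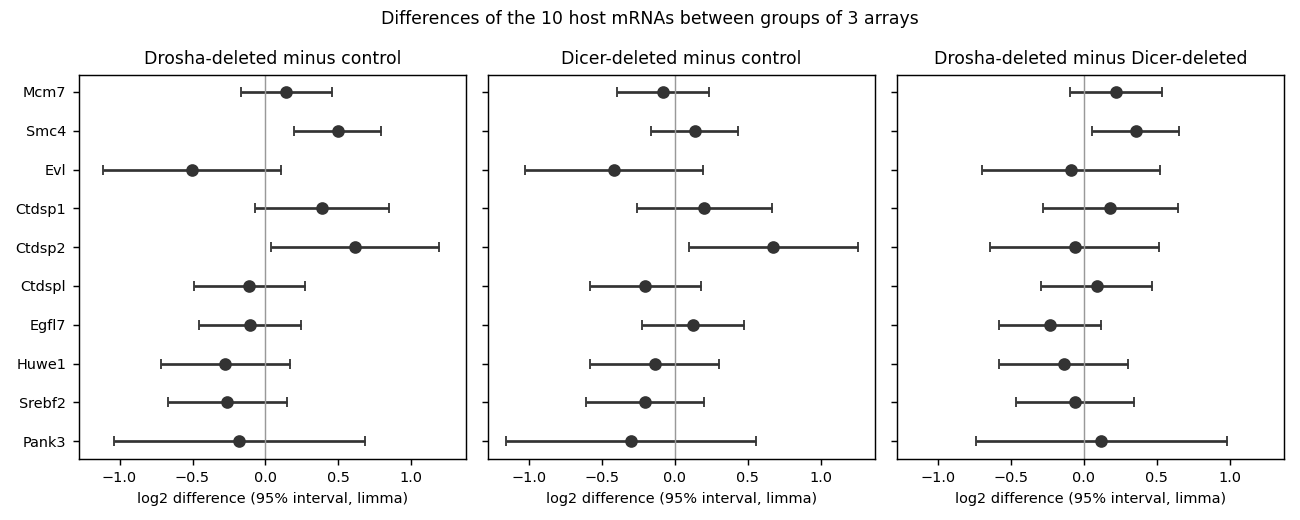
Log2 difference of each host mRNA with its 95% interval from limma, for the 3 comparisons of groups of 3 arrays. Between the deletions the intervals stay between -0.74 and 0.98, and the Smc4 interval (0.06 to 0.66) is the 1 that leaves out 0.

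The 3 phosphatase hosts did not show the same pattern. Ctdsp1, Ctdsp2 and Ctdspl encode small phosphatases that act on the C-terminal domain of RNA polymerase II, and all carry a miR-26 hairpin. Ctdsp1 (probe at chr1:74443739-74443798, mm9) read 13.35, 12.61 and 12.86 in controls, 13.44, 13.26 and 13.28 without Drosha and 13.16, 12.88 and 13.39 without Dicer. Its difference from controls was 0.39 (-0.07 to 0.85) without Drosha and 0.20 (-0.26 to 0.66) without Dicer, and 0.18 (-0.28 to 0.64) between the deletions. Control replicate 1 lay within the range of the deletion arrays and the other 2 controls lay below all 6 of them.

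The same split among controls was wider for Ctdsp2. With the probe at chr10:126436972-126437031 (mm9), controls read 12.00, 11.02 and 11.00, Drosha-deleted arrays 11.82, 11.86 and 12.19, and Dicer-deleted arrays 12.09, 11.91 and 12.06. The differences from controls, 0.61 (0.03 to 1.19) without Drosha and 0.68 (0.10 to 1.25) without Dicer, were close to each other, with adjusted p of 0.169 and 0.191. Between the deletions the Ctdsp2 difference was -0.06 (-0.64 to 0.52). Measured against control replicate 1 alone, the Ctdsp2 differences became -0.05 and 0.02. The Ctdsp1 differences then became -0.02 and -0.21, so the direction of 3 of these 4 values rests on control replicates 2 and 3.

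Without control replicate 1, Ctdsp1 passed for Drosha-deleted cells (0.59, adjusted p of 0.0271) and Ctdsp2 passed for both deletions (0.94, adjusted p of 0.00187, and 1.01, adjusted p of 0.00166). Over 19 alternatives the adjusted p ranged from 0.0271 to 0.999 for Ctdsp1 in Drosha-deleted cells, from 0.00187 to 0.999 for Ctdsp2 in Drosha-deleted cells and from 0.00166 to 1.000 for Ctdsp2 in Dicer-deleted cells. In these fits 33.6% and 30.5% of all genes passed for the 2 deletions, so the members' calls stand against a high background.

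Ctdspl, with a probe at chr9:118949865-118949924 (mm9), read 13.40, 13.58 and 13.34 in controls, 13.23, 13.08 and 13.68 without Drosha and 13.29, 13.32 and 13.11 without Dicer. All 3 Dicer-deleted arrays lay below all controls, which 9.95% of all genes also showed, while the Drosha-deleted arrays spanned the range of both. The differences were -0.11 (-0.49 to 0.27) from controls without Drosha, -0.20 (-0.58 to 0.18) without Dicer and 0.09 (-0.29 to 0.47) between the deletions. Control replicate 1 alone as control gave -0.07 and -0.16. The related phosphatase genes Ctdnep1 and Ctdspl2 also lay within 0.28 of controls in each deletion, and 0 of 2 passed.

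Probes of the same host did not always repeat a difference. The other 2 probes of Ctdsp2, at chr10:126434239-126434298 and chr10:126434210-126434269, overlap each other and lie apart from the probe used. They gave 0.24 (-0.07 to 0.55) and 0.04 (-0.20 to 0.29) for Drosha-deleted minus control, against 0.61 at the probe used. For Dicer-deleted minus control they gave 0.19 (-0.12 to 0.50) and 0.16 (-0.09 to 0.40), against 0.68 at the probe used. Between the deletions the 3 probes gave 0.05, -0.11 and -0.06. The second Ctdspl probe, at chr9:118952833-118952892, gave -0.18 (-0.44 to 0.08) from controls and -0.14 (-0.40 to 0.12) between the deletions, where the probe used gave 0.09. A second Srebf2 probe, at chr15:82030068-82030127, gave -0.22 (-0.56 to 0.12) from controls and -0.24 (-0.58 to 0.10) between the deletions. These values from controls are for cells without Drosha. Without Dicer, the second Ctdspl probe gave -0.04 and the second Srebf2 probe 0.02, where each probe used gave -0.20.

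**Figure D3:**
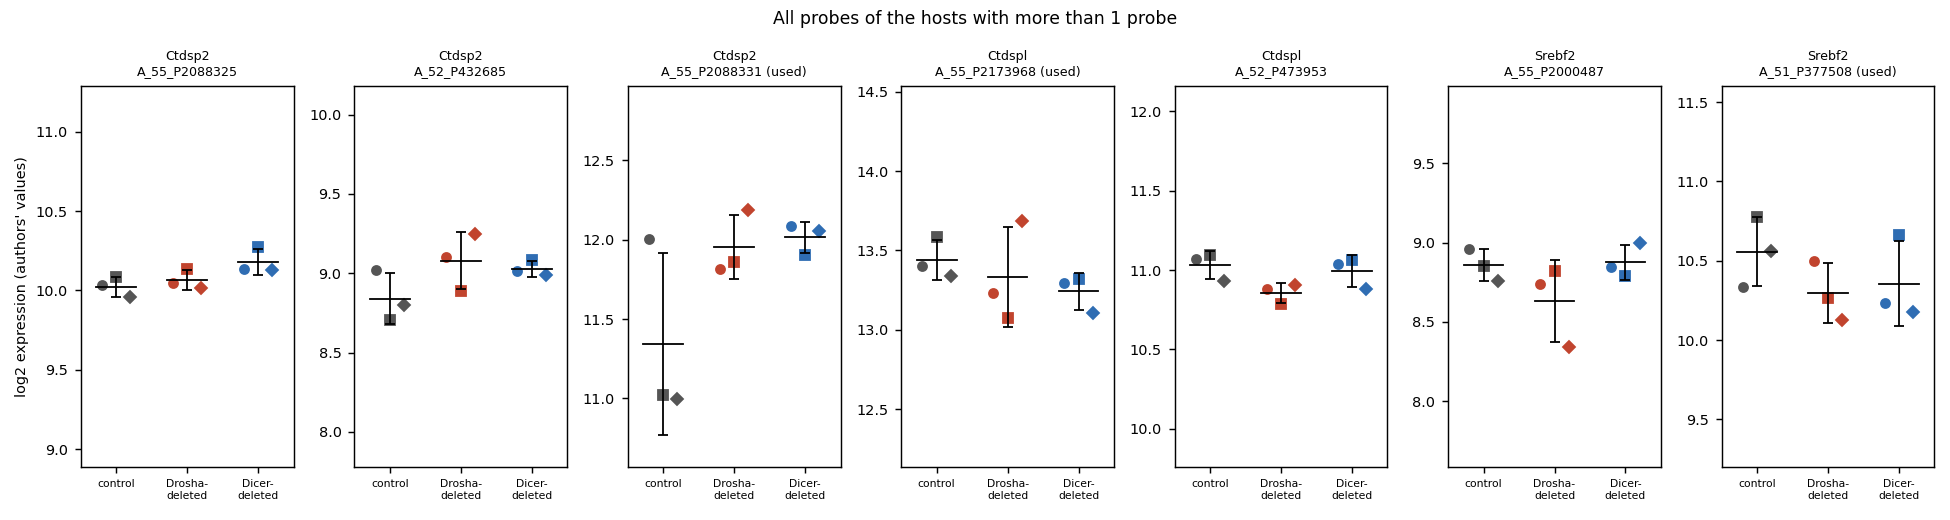
Levels at every probe of the 3 hosts with more than 1 probe, on the authors' log2 scale, with means and SDs of 3 arrays per group; the probe that stands for the gene is marked as used. The gap between control replicate 1 (12.00) and the other controls (11.02 and 11.00) at the Ctdsp2 probe used is not seen at the probe whose group means are 10.02, 10.07 and 10.18.

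Evl was lower in most deletion arrays, with wide spread. Evl encodes a member of the Ena/VASP family, which promotes growth of actin filaments, and its probe lies at chr12:109926666-109926725 (mm9). Controls read 11.68, 11.48 and 11.30, Drosha-deleted arrays 10.70, 10.67 and 11.57, and Dicer-deleted arrays 10.84, 10.89 and 11.48. Replicates 1 and 2 of each deletion lay below every control, and replicate 3 of each lay among the controls. The difference was -0.50 (-1.11 to 0.10) without Drosha and -0.42 (-1.02 to 0.19) without Dicer, with adjusted p of 0.252 and 0.369, and -0.09 (-0.70 to 0.52) between the deletions. Set against control replicate 1 alone, the first 2 were -0.70 and -0.61. Its relative Vasp differed by -0.57 and -0.36 from controls, and Enah by 0.17 and 0.26, and 0 of 2 passed.

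Egfl7 encodes a secreted protein with EGF-like domains, known from blood vessel endothelium, and hosts miR-126, a microRNA known in blood stem cells. Its probe lies at chr2:26448142-26448201 (mm9). Its levels were 13.34, 13.73 and 13.41 in controls, 13.58, 13.24 and 13.34 without Drosha and 13.46, 13.78 and 13.61 without Dicer, and all groups overlapped. The differences were -0.11 (-0.46 to 0.24) and 0.12 (-0.23 to 0.47) from controls, and -0.23 (-0.58 to 0.12) between the deletions, with an adjusted p of 0.999 for the last. The first 2 were 0.05 and 0.28 with control replicate 1 alone. Of the endothelial markers, Pecam1, Kdr, Tek and Vwf were well above background on all 9 arrays, and Cdh5, a defining one, on 1 of 9. Their summed level was 15.09 to 15.63 in controls, 14.76 to 15.30 without Drosha and 14.99 to 15.04 without Dicer. Vwf, at 14.02 to 15.33, weighed most in that sum. The members went both ways: from controls, without Drosha and without Dicer, Vwf differed by -0.70 and -0.67, Tek by -0.64 and -0.36, Kdr by 1.18 and 0.88, and Pecam1 by 0.40 and 0.44. Of the 4 tested, 0 passed in any comparison, and their part in the Egfl7 values was not tested. The paralog Egfl8 differed from controls by 0.44 and 0.43 and by 0.01 between the deletions.

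Huwe1 encodes a large HECT-type ubiquitin ligase, and its probe lies at chrX:148369375-148369434 (mm9). Controls read 13.00, 13.54 and 13.41, Drosha-deleted arrays 12.99, 12.76 and 13.37, and Dicer-deleted arrays 13.13, 13.34 and 13.06. All groups overlapped, and control replicate 1 lay below the other controls. The differences were -0.27 (-0.72 to 0.17), -0.14 (-0.58 to 0.31) and -0.14 (-0.58 to 0.31) in the order of the comparisons above. Against control replicate 1 alone, the first 2 became 0.04 and 0.18.

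Srebf2, which encodes the transcription factor that switches on cholesterol synthesis and uptake genes, has its probe at chr15:82034765-82034824 (mm9). Its levels were 10.33, 10.77 and 10.56 in controls, 10.50, 10.27 and 10.12 without Drosha and 10.23, 10.66 and 10.17 without Dicer. The groups overlapped, with differences of -0.26 (-0.67 to 0.14) and -0.20 (-0.61 to 0.20) from controls and -0.06 (-0.46 to 0.35) between the deletions. With control replicate 1 alone as control the first 2 were -0.04 and 0.02.

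Sterol genes known to work with or under Srebf2 (Srebf1, Hmgcs1, Sqle, Insig1 and Scap) had a median difference from controls of 0.01 without Drosha and -0.17 without Dicer, and of 0.21 between the deletions, and 0 of 5 passed in any comparison. Between the deletions 4 of 5 were above 0, and 3 of 5 (Hmgcs1, Sqle and Insig1) did not overlap with Drosha-deleted cells higher, against 8.62% of all genes. Insig1, which retains the Srebf proteins in the endoplasmic reticulum, read 9.37, 9.30 and 9.48 without Drosha and 9.06, 8.72 and 8.69 without Dicer. That difference was 0.56 (0.23 to 0.89), with an adjusted p of 0.426. Srebf1, the first of the list, differed by -0.28 and -0.50 from controls and by 0.21 between the deletions.

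**Figure D4:**
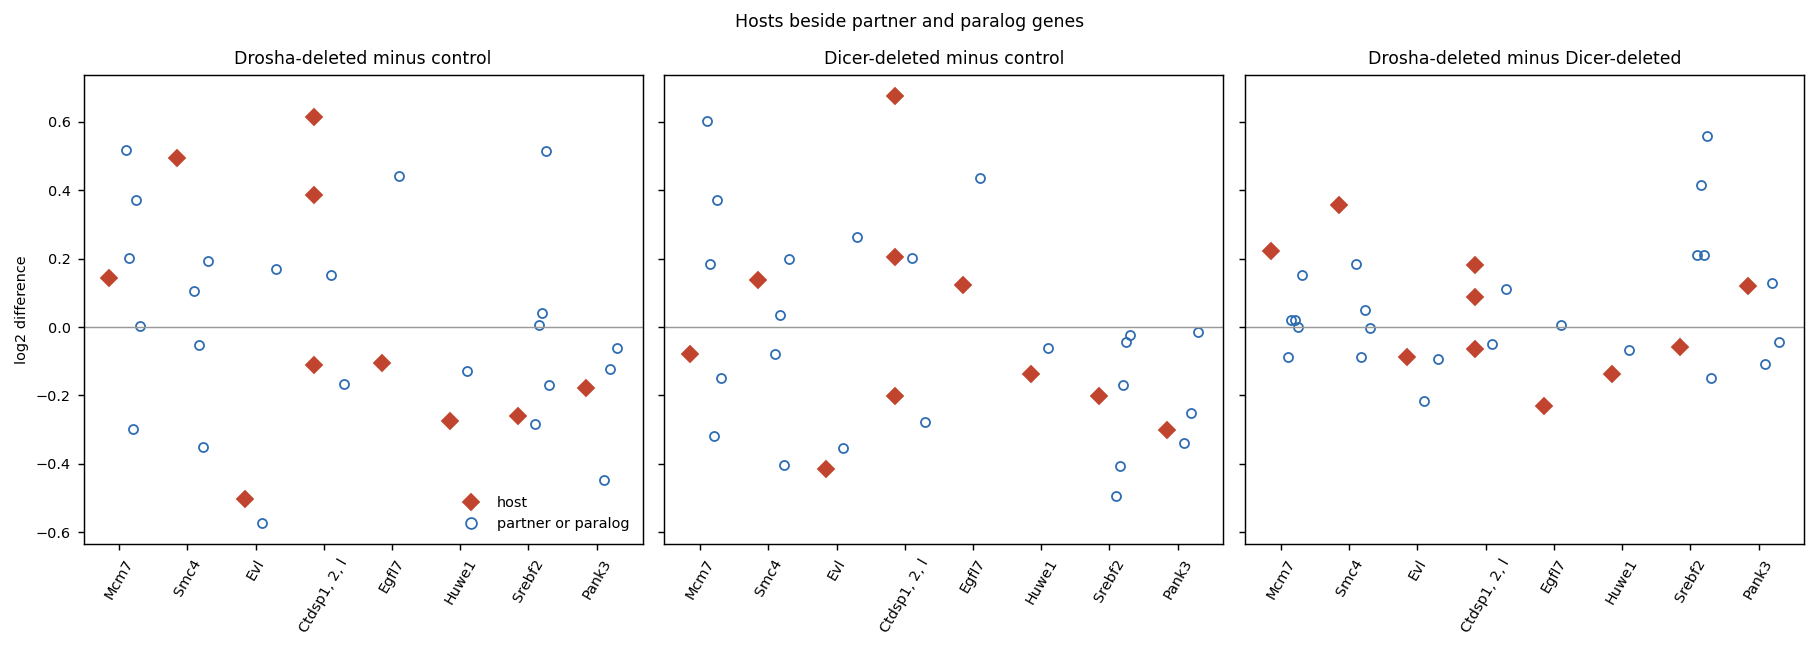
Log2 difference of each host (red diamonds) beside its partner and paralog genes (open circles) in the 3 comparisons, by host family; the Huwe1 column shows 1 related ligase gene, which is not described further. In the comparison of the deletions Smc4 (0.36) lies above the 4 other condensin genes, and 4 of 5 sterol genes lie above 0 while Srebf2 lies at -0.06.

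Pank3 encodes a pantothenate kinase, the first enzyme of coenzyme A synthesis, and its probe lies at chr11:35599745-35599804 (mm9). Controls read 10.16, 8.54 and 8.90, Drosha-deleted arrays 9.25, 9.13 and 8.69, and Dicer-deleted arrays 9.26, 8.66 and 8.78. Control replicate 1 was the highest of the 9 arrays and control replicate 2 the lowest, so Pank3 had the widest range of the 10 hosts, 1.62. The differences were -0.18 (-1.04 to 0.68), -0.30 (-1.16 to 0.56) and 0.12 (-0.74 to 0.98). With control replicate 1 as the only control the first 2 became -1.14 and -1.26, with adjusted p of 0.673 and 0.760, and without control replicate 1 they became 0.30 and 0.18. Of Pank1, Pank2 and Pank4, of which the first 2 also host microRNAs, 0 of 3 passed, and Pank1 differed by -0.45, -0.34 and -0.11.

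The spread among controls touched the hosts to different degrees. Control replicate 1 minus the mean of control replicates 2 and 3 was 1.44 for Pank3, 0.99 for Ctdsp2 and 0.62 for Ctdsp1, and -0.48 for Huwe1. For Mcm7 and Ctdspl it was -0.09 and -0.06.

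The hosts did not vary together over the 9 arrays. Of the 45 pairs of hosts, 22 had a Pearson r above 0 and the median r was -0.01, as a description over arrays that share slides and controls. The highest was 0.794 between Smc4 and Ctdsp1 and the lowest -0.781 between Ctdsp1 and Srebf2. Among the tested genes with a current gene symbol, the pattern closest to each host over the 9 arrays was that of Scaper for Mcm7 (r = 0.932), Fanci for Smc4 (0.952), Exoc8 for Evl (0.972) and Sp140 for Ctdsp1 (0.983). It was Shroom1 for Ctdsp2 (0.993), Cep57l1 for Ctdspl (0.964), Hyal2 for Egfl7 (0.990), Fry for Huwe1 (0.986), Mtap for Srebf2 (0.959) and Rxfp3 for Pank3 (0.941). Each of these r values was picked as the highest among all those genes, over only 9 arrays. Their size follows in part from that choice, and a relation of these genes to the hosts was not tested.

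Further hosts were set beside the 10, and whether the 10 differ from them was not tested. A second list held 39 protein-coding genes known to carry microRNAs, of which 31 were tested and 0 passed in any comparison. Between the deletions, Sfmbt2 (0.63), Clcn5 (0.49) and Aatk (0.48) were the 3 highest of them and Rcl1 (-0.26), Hnrnpk (-0.20) and Myh7 (-0.17) the 3 lowest. The median between the deletions was 0.12, with 19 of 31 above 0, where all genes had a median of 0.00 and 50.7% above 0. It was -0.07 and -0.16 for the deletions against controls. For Dicer-deleted cells against controls, 10 of 31 did not overlap and were lower, against 9.95% of all genes, and 3 were higher. Drosha-deleted cells were higher than Dicer-deleted cells without overlap for 7 of 31, against 8.62% of all genes, and lower for 2.

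Across the genome, 510 protein-coding genes besides the 10 hosts enclose a microRNA gene on their own strand in the GRCm38.p6 table. They include genes of the second list, and 440 of the 510 were tested. Their medians were -0.03, -0.05 and 0.00 in the order of the comparisons above. Of the 440, 2 rose in Drosha-deleted cells against both other groups, 0 fell, and 0 changed in Dicer-deleted cells against controls. Over all genes, 0.122% rose in Drosha-deleted cells against controls and 0.0521% against Dicer-deleted cells.

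Aopep, an aminopeptidase gene, encloses Mir23b, Mir27b and Mir24-1. It read 10.29, 10.28 and 10.29 in controls, 12.75, 12.80 and 12.55 without Drosha and 10.55, 10.54 and 10.41 without Dicer. The groups lay far apart, with differences of 2.42 (2.16 to 2.67, adjusted p of 0.000110) from controls and 2.20 (1.95 to 2.46, adjusted p of 0.000124) from Dicer-deleted cells. With scanner values the differences were 3.01 and 2.22 and did not pass (adjusted p of 0.0540 and 0.322 by limma). Without control replicate 2 in those scanner values both passed (adjusted p of 0.0100 in each). The mean over both Aopep probes gave 1.01 (adjusted p of 0.0196) and 0.87 (adjusted p of 0.0519). Means this far below the values at the probe used require that the other probe did not rise. The Aopep rise therefore rests on 1 probe. Dgcr8, the partner of Drosha, encloses Mir1306 among others and is known as an mRNA that Drosha itself can cut. Its levels were 10.42, 10.75 and 10.82 in controls, 12.23, 12.27 and 12.45 without Drosha and 10.71, 10.97 and 10.48 without Dicer. Its differences were 1.65 (1.28 to 2.02, adjusted p of 0.0109) and 1.60 (1.23 to 1.97, adjusted p of 0.0166). The first no longer passed without control replicate 2 or Drosha-deleted replicate 1 or 2 (adjusted p at most 0.0646), and the second without any 1 Drosha-deleted array or Dicer-deleted replicate 1 or 3 (at most 0.0871). With scanner values the Dgcr8 differences were 2.04 and 1.58 and did not pass (adjusted p of 0.171 and 0.721 by limma).

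A further gene, 2610318N02Rik, which encloses Mir130b and Mir301b, lay just outside the threshold and was picked after its values were seen. It read 11.51, 12.48 and 12.30 in controls, 13.85, 13.73 and 13.53 without Drosha and 11.78, 12.18 and 12.08 without Dicer, with differences of 1.61 (adjusted p of 0.0534) and 1.69 (adjusted p of 0.0734). The 95% interval of each of the 10 listed hosts in the comparison of the deletions ended below 1. Aopep, Dgcr8 and 2610318N02Rik were named for passing the threshold or after their values were seen. That they lie above these intervals at the probe used follows from that choice and tests nothing about the hosts.

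**Figure D5:**
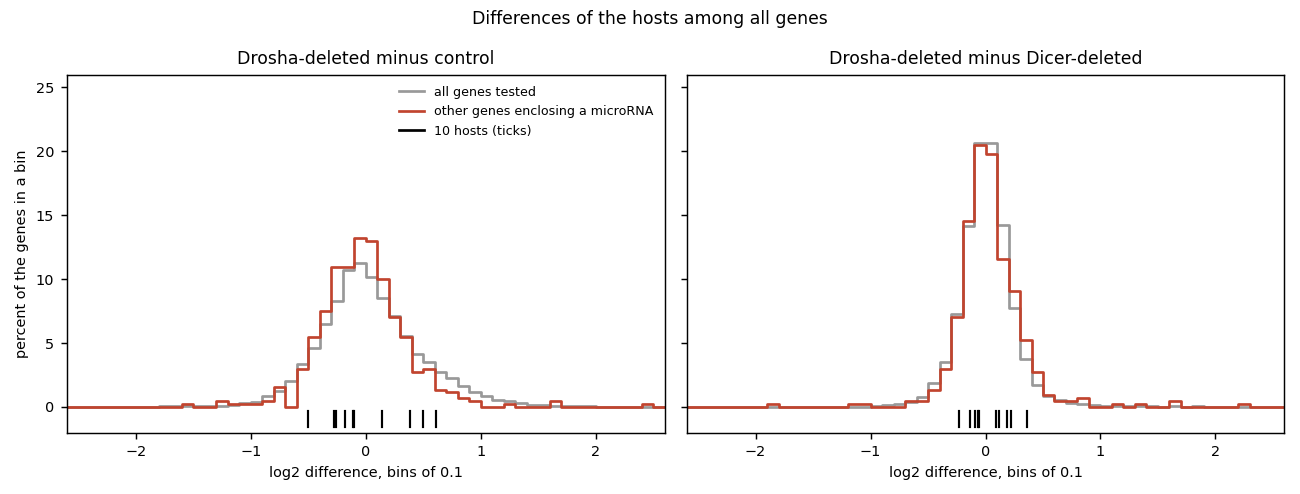
Distribution of log2 differences in bins of 0.1, as a percentage of all genes tested (grey) and of the 440 other genes that enclose a microRNA (red), with the 10 hosts as ticks. Between the deletions the hosts lie from -0.23 (Egfl7) to 0.36 (Smc4), inside the bulk of all genes, and Aopep lies at 2.20.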

How the data were processed

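The 9 arrays were of Agilent design 028005, with 1 colour and probes placed on mm9, in 3 groups of 3. Per the file headers, the deposited scanner files hold intensity values from Feature Extraction 10.7.3.1 (protocol GE1_107_Sep09). The values the authors deposited for the series are log2 values with nearly equal column medians (6.36 to 6.38); the submitters' notes name limma, and their background step is not given in the sources used here. The authors' values were tested with limma 3.58.1 (R 4.3.3), with 1 mean per group over all 9 arrays, two-sided moderated tests and Benjamini-Hochberg adjustment over 23023 genes or regions at 0.05. Probes were kept if every array of 1 group or more read them well above background (31485 of 55681 probes). All 14 host probes were well above background on all 9 arrays and none was saturated. The scripts were checked on simulated data. The named genes are the 10 hosts, fixed partner and host lists, the gene most like each host, and microRNA-enclosing genes past the threshold, with values for the first partner of each set; Enah and Insig1 were named after their values were seen. Some genes of the partner and marker lists are not reported here, and counts are over the genes that are. Members and lists were chosen with earlier results of these data known. The number of arrays limits the precision. Alternatives were scanner values (75th percentile scaling, or normexp with offset 50 and quantile normalisation), no filter, mean over probes, rescaled columns, blocks for slide and replicate number, pairwise fits, leaving out each array, and, added after seeing the data, control replicate 1 as the only control.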

Additional observations from a re-analysis of the deposited data

How the results depend on the processing

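Across 10 alternatives that left all arrays in or dropped doubtful controls, 0 of 300 host values passed the threshold by limma (unadjusted p under 0.05: at most 2 of 10 hosts per comparison) and 29 changed sign. With scanner values the median of all genes moved to 0.36 and 0.37 against controls (0.18 and 0.18 with normexp). Of 30 host signs, 10 turned with scanner values and 10 with normexp, against 1 with scanner values without control replicate 2. For Drosha-deleted minus control, scanner values gave 0.36 for Ctdspl, 0.47 for Egfl7, 0.32 for Huwe1, 0.39 for Srebf2 and 0.11 for Pank3, and normexp gave 0.16, 0.24, 0.11, 0.38 and 0.17. For Dicer-deleted minus control, scanner values gave 0.47 for Mcm7, 0.31 for Ctdspl, 0.48 for Huwe1, 0.48 for Srebf2 and 0.085 for Pank3, and normexp gave 0.17, 0.057, 0.25, 0.46 and 0.087. With control replicate 1 as the only control, Drosha-deleted minus control was -0.024 for Ctdsp1, -0.048 for Ctdsp2, 0.049 for Egfl7 and 0.043 for Huwe1, and Dicer-deleted minus control was -0.21 for Ctdsp1, 0.18 for Huwe1 and 0.021 for Srebf2. Scanner values without control replicate 2 gave -0.027 for Ctdsp1 in Dicer-deleted minus control, and the mean over probes gave -0.025 for Ctdspl between the deletions.

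Leaving out 1 array turned 12 of 270 host values. The ranges were -0.51 to 0.30 for Pank3, -0.20 to 0.014 for Egfl7 and -0.29 to 0.016 for Ctdspl in Drosha-deleted minus control, and -0.63 to 0.18 for Pank3 in Dicer-deleted minus control. Between the deletions they were -0.38 to 0.12 for Evl, -0.18 to 0.0061 for Ctdsp2, -0.30 to 0.0046 for Huwe1, -0.088 to 0.22 for Ctdspl and -0.16 to 0.093 for Srebf2. The count of hosts past the threshold ran from 0 to 3, 0 to 1 and 0 to 0 in the 3 comparisons, and was above 0 only without control replicate 1.

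The count of all genes past the threshold was 39, 4 and 13 for Drosha-deleted against control, Dicer-deleted against control and between the deletions. Leaving out 1 array gave 4 to 7747, 0 to 7029 and 4 to 16, the highest of each without control replicate 1 (unadjusted p under 0.05 for 2942 to 9888 genes in the fits of the second comparison that gave 0 or 7029). For Drosha-deleted against control, scanner values gave 7, normexp 1, no filter 25, the slide as a block 13, the 2 groups alone 5 and scanner values without control replicate 2 gave 11. For Dicer-deleted against control, normexp gave 0 (2034 at an unadjusted p under 0.05), no filter 2, the 2 groups alone 0 (4027) and control replicate 1 alone 21. Between the deletions, scanner values gave 2, normexp 2 and the slide as a block 7. The causes were not tested. Deviations from group means correlated at -0.28 to 0.24 for same-numbered samples and at -0.29 to 0.28 for differently numbered ones. Such values cannot show whether the samples were paired. The replicate block gave 4, 0 (4536 at an unadjusted p under 0.05) and 5 genes and changed no host's call.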
